A study of Mus musculus with 12 samples.

Results

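Pyruvate made by glycolysis enters the mitochondrial matrix through the mitochondrial pyruvate carrier, a heteromer of Mpc1 and Mpc2. There the pyruvate dehydrogenase complex converts it to acetyl-CoA in successive steps: E1, built from Pdha1 and Pdhb, decarboxylates it, E2 (Dlat) transfers the acetyl group, E3 (Dld) reoxidises the lipoyl arms, and Pdhx anchors E3 to the core. The kinases Pdk1, Pdk2, Pdk3 and Pdk4 phosphorylate E1 and switch the complex off, and the phosphatases Pdp1 and Pdp2 switch it back on. The normal prostate is known for a truncated citric acid cycle with secretion of citrate, so the entry of pyruvate into mitochondria is a point of interest in this gland.

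The transcripts described here are those of the 10 genes Mpc1, Mpc2, Pdha1, Pdhb, Dlat, Pdhx, Pdk1, Pdk2, Pdk3 and Pdk4, found by name among the 24674 genes of the expression table, each in 1 row. RNA was sequenced from 12 samples of mouse prostate organoids of basal origin, wild type and on the C57BL/6 background, 3 for each of 4 treatments. The treatments were vehicle, UK5099 (an inhibitor of the pyruvate carrier protein), butyrate (an inhibitor of histone deacetylases) and UK5099 + Butyrate, called the combination below. The comparison asked whether blocking the carrier and blocking histone deacetylases alter the same transcripts. The labels give no age, dose or duration, and nothing in them says that the 3 samples of a group came from separate animals or cultures, so the p-values measure the spread between these samples. The organoids are an epithelial culture without the stroma of the gland, and UK5099 acts on the carrier protein, so the level of Mpc1 or Mpc2 RNA is no check that the drug worked.

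The depth recovered from the smallest steps of the values was 33251829 to 43498916 fragments per sample. TPM, the deposited unit, was computed on the genomic span of each gene, introns included, and sums to 1000000 per sample. A gene with long introns therefore counts for less in the marker sums, which were not recomputed per exonic length. In this unit the vehicle samples summed to 3507 to 3547 over the basal markers Krt5, Krt14 and Trp63. The UK5099 samples summed to 9746 to 10238, those given butyrate to 4486 to 4676, and the combination samples to 8067 to 8320. Over the luminal markers Krt8, Krt18 and Krt19 the ranges were 4132 to 4301, 2328 to 2487, 2241 to 2281 and 1389 to 1576 TPM in the same order. The epithelial markers Epcam and Cdh1 summed to 699.0 to 718.5 TPM in vehicle, 425.0 to 445.8 under UK5099, 271.1 to 272.9 under butyrate and 178.5 to 182.7 in the combination. The markers in the table for endothelium (3 of 3 listed), smooth muscle (2 of 4) and fibroblasts (5 of 5) summed to at most 0.0415, 0.201 and 1.56 TPM in any sample. The immune list (3 of 5 in the table) was at 24.0 to 25.1 TPM in vehicle and 87.0 to 97.7 in the combination, of which Cd68, a lysosomal gene, was 86.4 to 97.1 TPM, while the leukocyte marker Ptprc stayed at or under 0.00425 TPM. In bulk RNA, fewer cells of a type and less RNA per cell cannot be told apart, and the part of the changed lineage markers in the values below was not tested. UK5099 replicate 1 and combination replicate 1 differed more from their partners than other pairs did, with a chi-square per degree of freedom of 6.6 to 7.25 against 1.97 to 2.72 for the other pairs.

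Differences below are coefficients on the log2(TPM + 1) scale from a limma model of both drugs and their interaction across all genes, given ± SE. A gene was called at a Benjamini-Hochberg adjusted p under 0.01. A TPM is a share of a fixed total, and in the treated samples the median gene with a mean of at least 1 TPM lay lower than in vehicle, by -0.12 with UK5099, -0.30 with butyrate and -0.41 in the combination. Genes that span under 1000 bases held 46.7% to 47.5% of the total in vehicle and 47.5% to 48.2% with UK5099. They held 52.8% to 53.3% with butyrate and 52.6% to 53% in the combination. Each coefficient is therefore given as deposited and again after scaling every sample by the median of its ratios to the mean sample, which brought these medians to 0.0053, 0.00060 and 0.0044. A change relative to other genes is the second of the pair.

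Pdk1 was the one member that rose with every treatment under both scalings, and it rose most with butyrate. Pdk4, the rarest of the kinase transcripts, fell in the combination, as did Pdhx, and Pdhx also fell with UK5099 alone. Dlat was called lower with butyrate and in the combination under both scalings, though after scaling close to the threshold. Pdha1 and Pdhb were called lower in the combination as deposited, and relative to other genes Pdhb was called higher there and Pdha1 not called. For the carrier genes no difference from vehicle was called after median of ratios scaling, while voom called Mpc1 lower with butyrate (-0.23 ± 0.06, adjusted p = 0.00567).

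As deposited, 1 member was called higher and 4 lower with UK5099, against 8.24% and 24.7% of all genes. With butyrate 1 was called higher and 6 lower, against 9.7% and 35.9%. In the combination 1 was called higher and 8 lower, against 10.1% and 40.8%. Those shares count every gene, however rare. A further fit, as deposited, took the 13345 genes averaging 1 TPM or more. It called 5299 of them lower with UK5099, 7836 with butyrate and 8698 in the combination. Of the 9 members it held, 4, 6 and 7 were lower in the same order. After median of ratios scaling the 10 members had 1 higher and 1 lower call with UK5099 (13.6% and 13.6% of all genes). They had 4 higher and 1 lower with butyrate (20.2% and 18.2%), and 2 higher and 3 lower in the combination (23.4% and 20.6%). The lower calls as deposited thus became fewer in every treatment, while the single higher call became 4 with butyrate. Without vehicle replicate 1, or without vehicle replicate 2, the UK5099 count fell from 5 to 3, with Dlat and Pdk4 lost in both cases. With the further limit of an absolute coefficient over 1, limma on log2(TPM + 1) called 0 members in each comparison. It called 1, Pdk4, in the combination and for UK5099 added to butyrate with pseudocounts of 0.1 and 0.01, as did voom on recovered fragments, and with 0.01 also for butyrate added to UK5099. Of all genes, that limit kept 1.84% with UK5099, 3.54% with butyrate and 6.42% in the combination. It kept 0.908% for UK5099 added to butyrate, 1.97% for butyrate added to UK5099, 1.86% for butyrate against UK5099 and 1.01% for the interaction.

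**Figure D1:**
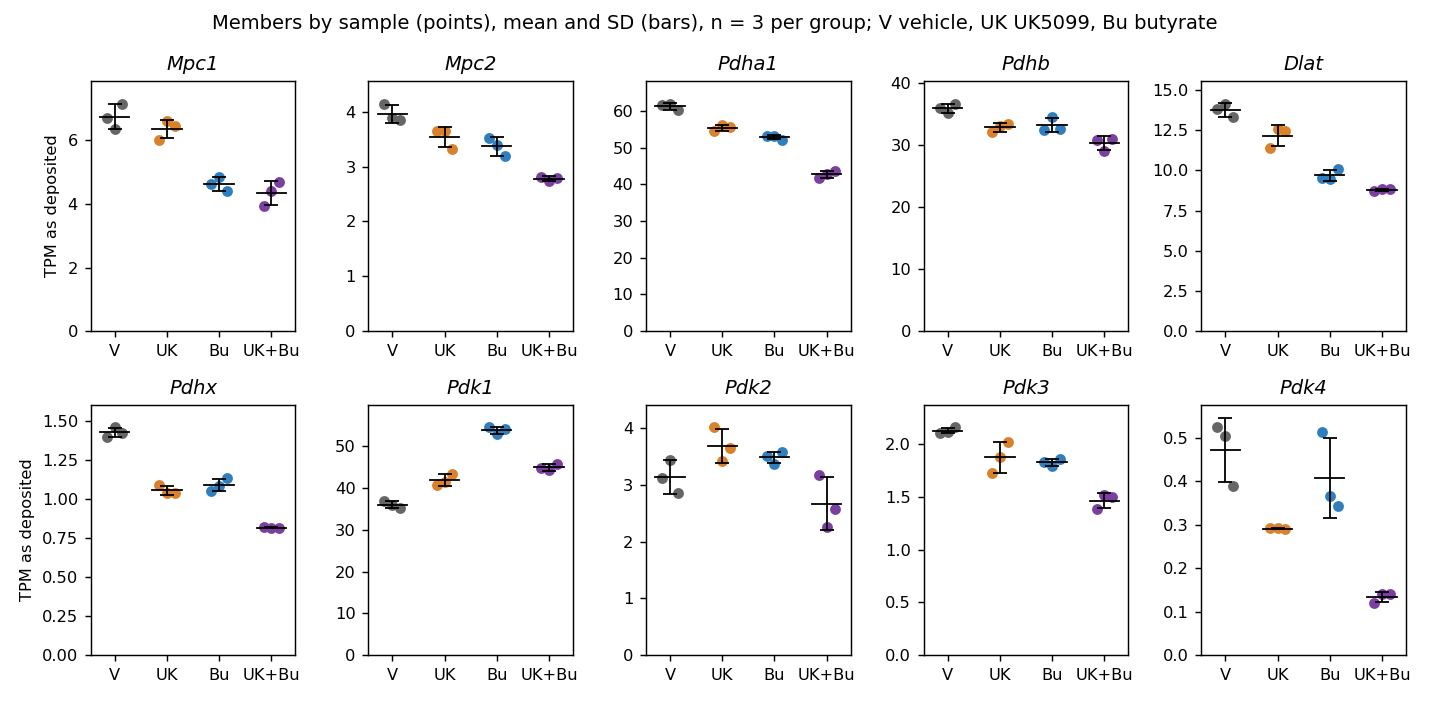
TPM as deposited (vertical axis, from 0) of each of the 10 members in the 12 samples, with the group mean and SD (n = 3). V is vehicle, UK is UK5099 and Bu is butyrate. The 3 butyrate samples of Pdk1 lie above all other samples, and the 3 combination samples of Pdk4 lie below all others.

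**Figure D2:**
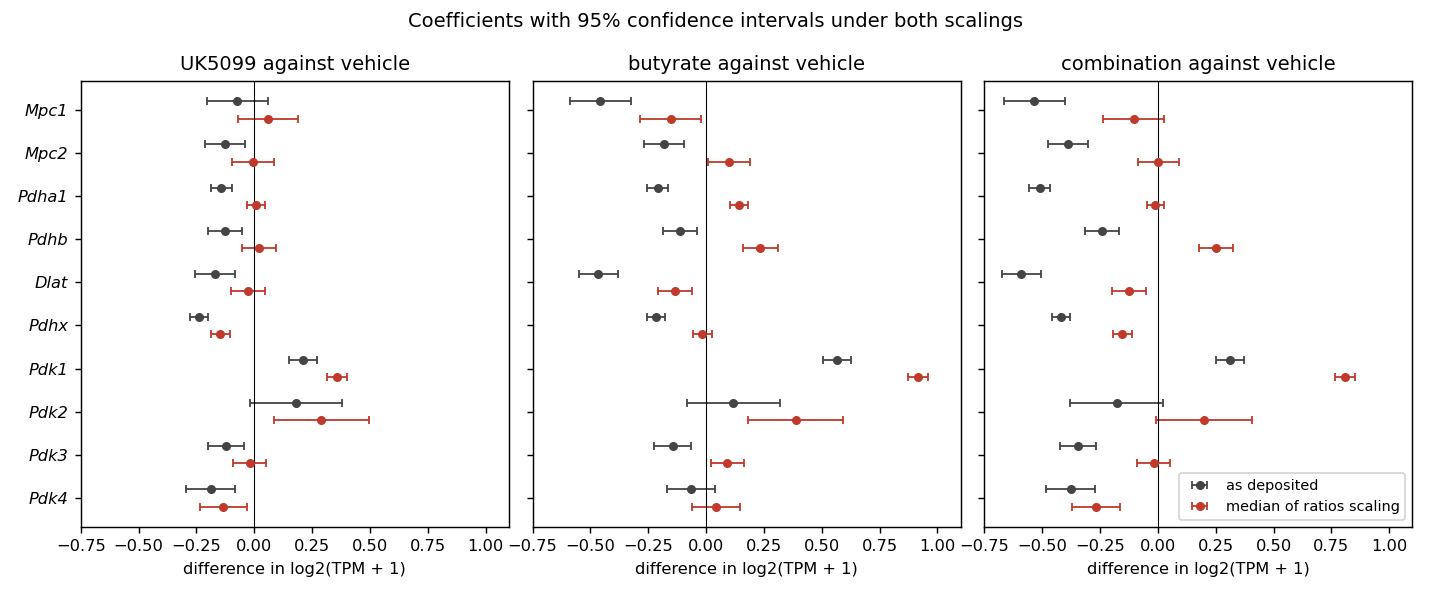
Coefficient of each member against vehicle (horizontal axis, difference in log2(TPM + 1)) with its 95% confidence interval, as deposited and after median of ratios scaling. Pdk1 lies above 0 in all 3 panels under both scalings, while Pdhb in the butyrate and combination panels lies below 0 as deposited and above 0 after scaling.

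The carrier subunits come first. Both are needed for a working carrier, and loss of either protein destabilises the other. Mpc1 lies on chromosome 17, from 8501736 to 8516493 on the plus strand (GRCm39), and overlaps 4930506C21Rik. Its level was 6.69, 6.36 and 7.15 TPM in vehicle, 6.02, 6.59 and 6.45 with UK5099, 4.62, 4.85 and 4.41 with butyrate, and 3.94, 4.41 and 4.69 in the combination. The vehicle and UK5099 samples overlapped, and all samples with butyrate lay below all samples without it. The coefficients were -0.07 ± 0.06 with UK5099, -0.46 ± 0.06 with butyrate (adjusted p = 8.64e-05) and -0.53 ± 0.06 in the combination (adjusted p = 2.27e-05). Scaled, they were 0.06 ± 0.06, -0.15 ± 0.06 and -0.11 ± 0.06, with adjusted p of 0.522, 0.0555 and 0.165.

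Fragments of Mpc1 are shared with a processed pseudogene, Mpc1-ps, a copy of the spliced transcript on chromosome 12 that overlaps Zfp839. In the GRCm38 reference of GENCODE M21 the 330 bases of Mpc1-ps (chr12:110858565-110858894, minus strand) differ from the 330 coding bases of transcript Mpc1-208 (gene at chr17:8282904-8297661, plus strand) at 1 position, G41A, counted from the first base of the start codon, with the Mpc1 base first. The first 150 bases of each are shown because that one difference, in capitals, is all that separates the 330 bases:

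Mpc1: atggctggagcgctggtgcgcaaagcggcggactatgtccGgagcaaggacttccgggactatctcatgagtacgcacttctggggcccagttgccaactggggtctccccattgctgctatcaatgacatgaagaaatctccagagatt

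Mpc1-ps: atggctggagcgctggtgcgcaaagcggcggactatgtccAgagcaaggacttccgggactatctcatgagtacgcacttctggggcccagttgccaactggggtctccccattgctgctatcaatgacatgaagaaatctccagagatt

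Of the 281 windows of 50 bases in the Mpc1 coding sequence, 85.4% occur unchanged in Mpc1-ps, and a read is 50 bases long. Mpc1 held 569.8 to 879.9 fragments per sample and Mpc1-ps 168.3 to 254.8, which was 20.7% to 28.9% of their sum. None of the 12 recovered values of Mpc1 was whole, while their sum was whole in 7 of 12 samples (within 0.02 fragments). Fragments were thus divided between them, and the 2 levels are uncertain. Butyrate replicate 3 had the fewest Mpc1 fragments and the largest share for the pseudogene, 28.9%. With the fragments of both summed and fitted with voom, the Mpc1 coefficient was 0.04 with UK5099, -0.21 ± 0.06 with butyrate (adjusted p = 0.00256) and -0.16 ± 0.05 in the combination (adjusted p = 0.0147).

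**Figure D3:**
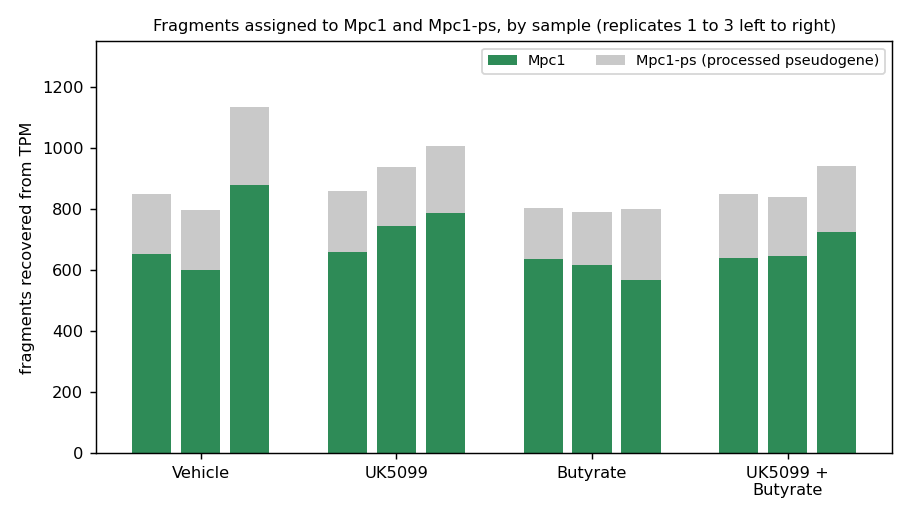
Fragments recovered for Mpc1 and for its processed pseudogene Mpc1-ps, stacked, in each of the 12 samples, not scaled for depth. The pseudogene holds 20.7% to 28.9% of each column, and the largest of these shares is in butyrate replicate 3.

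Mpc2 (chromosome 1, 165288206 to 165308783, plus strand) overlaps Gm37860. It was at 4.15, 3.88 and 3.84 TPM in vehicle, 3.65, 3.64 and 3.32 with UK5099, 3.52, 3.39 and 3.19 with butyrate, and 2.82, 2.73 and 2.80 in the combination. Each treated group lay below vehicle, and the combination below all others. The coefficients were -0.13 ± 0.04 (adjusted p = 0.0223), -0.18 ± 0.04 (adjusted p = 0.00234) and -0.39 ± 0.04 (adjusted p = 9.53e-06). On the scaled values they were -0.0068, 0.10 and 0.0019 with adjusted p of 0.945, 0.0737 and 0.979. The 95% interval of the scaled combination coefficient ran from -0.09 to 0.09. The ratio of Mpc1 to Mpc2 within a sample, which no scaling of the sample can move, was lower with butyrate by -0.26 (log2; exact stratified permutation test, two-sided, p = 0.01, adjusted p = 0.0156 over 14 tests). With UK5099 it differed by 0.13 (adjusted p = 0.0808). Each such test had 400 permutations and could not go below p = 0.005.

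The 4 subunit genes among the members ranged widely in level, though Dlat and Pdhb lay close to each other. Compared per length of joined exons, the vehicle means were 149.7 TPM for Pdha1, 39.9 for Dlat, 36.9 for Pdhb and 10.7 for Pdhx. Pdha1, the catalytic E1 alpha subunit that the kinases phosphorylate, lies on chromosome X (158905205 to 158921409, minus strand) and overlaps Map3k15. Its deposited level was 61.5, 61.9 and 60.2 TPM in vehicle, 54.4, 56.1 and 55.5 with UK5099, 53.2, 53.0 and 52.1 with butyrate, and 41.6, 42.7 and 43.6 in the combination. No 2 groups overlapped, and the combination was lowest. The coefficients were -0.14 ± 0.02, -0.21 ± 0.02 and -0.51 ± 0.02, all called. After scaling they were 0.0067 with UK5099 (adjusted p = 0.837), 0.14 ± 0.02 with butyrate (adjusted p = 6.57e-05) and -0.011 in the combination (adjusted p = 0.62), so that the butyrate difference changed its sign.

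Pdhb, the E1 beta subunit (chromosome 14, 14296748 to 14303777, plus strand), was at 36.1, 35.2 and 36.7 TPM in vehicle and 32.1, 33.1 and 33.5 with UK5099. It was at 32.4, 34.5 and 32.6 TPM with butyrate and 30.8, 29.0 and 31.0 in the combination. Both E1 genes were therefore lowest in the combination on the deposited scale. Of the 3 differences from vehicle the combination alone was called, at -0.24 ± 0.03 (adjusted p = 0.000109). Relative to other genes Pdhb was higher with butyrate, by 0.23 ± 0.03 (adjusted p = 0.000227), and in the combination, by 0.25 ± 0.03 (adjusted p = 0.000116), and all 3 samples of each lay above vehicle. The sign of the combination difference turned in the same way under quantile normalisation and voom.

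Dlat, the E2 acetyltransferase that forms the core (chromosome 9, 50545933 to 50571080, minus strand), had the largest combination coefficient of the members as deposited. Its level was 13.8, 14.1 and 13.3 TPM in vehicle, 11.4, 12.6 and 12.5 with UK5099, 9.52, 9.48 and 10.1 with butyrate, and 8.73, 8.83 and 8.85 in the combination. The groups followed each other downward without overlap. The coefficients were -0.17 ± 0.04 (adjusted p = 0.00493), -0.47 ± 0.04 (adjusted p = 3.01e-06) and -0.59 ± 0.04 (adjusted p = 3.76e-07). Relative to other genes the fall was smaller, -0.14 ± 0.03 with butyrate (adjusted p = 0.00654) and -0.12 ± 0.03 in the combination (adjusted p = 0.00952), and with UK5099 it was -0.03 (adjusted p = 0.616). The scaled Dlat calls were lost with a pseudocount of 0.1 (adjusted p = 0.0105 and 0.0149), that with butyrate also under quantile normalisation (adjusted p = 0.0104), and voom called both (adjusted p = 0.000185 and 0.00037). The genes whose log2 values followed Dlat most closely over the 12 samples were Pcgf3, Mief1, Taf1a, Ubqln4 and Eif3g, with Pearson's r of 0.994 to 0.995. Among the 13344 genes compared, 5155 had an r over 0.9, so that a close match to Dlat was common on the deposited scale.

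Pdhx, the E3-binding protein (chromosome 2, 102851420 to 102903858, minus strand), was the rarest of the subunit transcripts. It was at 1.40, 1.46 and 1.42 TPM in vehicle, 1.09, 1.04 and 1.04 with UK5099, 1.05, 1.08 and 1.13 with butyrate, and 0.818, 0.814 and 0.812 in the combination. The 3 combination samples lay within 0.0057 TPM of each other and below all others. The coefficients were -0.24 ± 0.02 (adjusted p = 3.19e-06), -0.22 ± 0.02 (adjusted p = 2.56e-06) and -0.42 ± 0.02 (adjusted p = 1.6e-08). On the scaled values Pdhx was lower with UK5099 by -0.15 ± 0.02 (adjusted p = 0.00016) and in the combination by -0.15 ± 0.02 (adjusted p = 5.86e-05), and with butyrate alone the difference was -0.02 ± 0.02 (adjusted p = 0.507). The pseudocount compresses a gene of this level, and the voom coefficients for Pdhx on 417 to 622 fragments per sample were -0.29 ± 0.06, -0.07 ± 0.06 and -0.33 ± 0.06.

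The kinases differed more from each other than the subunits did. Pdk1, a kinase known as a target of hypoxia-inducible factor, lies on chromosome 2 (71703568 to 71734202, plus strand). It was at 36.9, 35.9 and 35.3 TPM in vehicle, 40.7, 41.4 and 43.5 with UK5099, 54.5, 52.9 and 54.1 with butyrate, and 44.7, 44.4 and 45.8 in the combination. No 2 groups overlapped, and the combination stood between UK5099 and butyrate. The coefficients were 0.21 ± 0.03 (adjusted p = 0.00015), 0.57 ± 0.03 (adjusted p = 7.44e-08) and 0.31 ± 0.03 (adjusted p = 3.61e-06). After scaling they were 0.36 ± 0.02, 0.92 ± 0.02 and 0.81 ± 0.02, with adjusted p of 5.07e-07, 6.73e-10 and 7.74e-10. Without UK5099 replicate 1 the deposited UK5099 coefficient was 0.23 ± 0.03 (adjusted p = 0.00024), and without combination replicate 1 that of the combination was 0.32 ± 0.03 (adjusted p = 2.93e-05). The scaled group means were 1.29, 1.92 and 1.78 times that of vehicle.

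Pdk2 (chromosome 11, 94917084 to 94932180, minus strand), a widely expressed kinase, had groups that overlapped in part. It was at 3.13, 3.44 and 2.85 TPM in vehicle, 4.01, 3.41 and 3.64 with UK5099, 3.51, 3.37 and 3.57 with butyrate, and 3.17, 2.26 and 2.58 in the combination. The combination samples overlapped vehicle and lay below all UK5099 and butyrate samples, and combination replicate 1 stood above the other 2. The coefficients of 0.18 ± 0.09, 0.12 ± 0.09 and -0.18 ± 0.09 were not called (adjusted p = 0.144, 0.315 and 0.119). Scaled, Pdk2 was higher with butyrate by 0.39 ± 0.09 (adjusted p = 0.00588). With UK5099 the scaled difference was 0.29 ± 0.09 (adjusted p = 0.0334), and in the combination it was 0.20 ± 0.09 (adjusted p = 0.0973).

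Pdk3 (chromosome X, 92808213 to 92875807, minus strand), the second kinase in level per length, was at 2.11, 2.12 and 2.16 TPM in vehicle and 1.73, 1.88 and 2.02 with UK5099. It was at 1.83, 1.80 and 1.86 TPM with butyrate and 1.38, 1.52 and 1.498 in the combination. Every treated sample lay below vehicle as deposited. The coefficients were -0.12 ± 0.03 (adjusted p = 0.0176), -0.14 ± 0.03 (adjusted p = 0.00548) and -0.34 ± 0.03 (adjusted p = 1.23e-05). After scaling none was called, at -0.020, 0.09 and -0.019, and the sign with butyrate turned.

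Pdk4, the kinase induced in fasting through PPAR and FOXO factors (chromosome 6, 5483351 to 5496309, minus strand), was the rarest member. It had 45, 42 and 42 fragments in vehicle, 28, 29 and 31 with UK5099, 62, 41 and 39 with butyrate, and 17, 18 and 19 in the combination. In TPM this was 0.524, 0.505 and 0.388, then 0.292, 0.292 and 0.289, then 0.513, 0.367 and 0.344, then 0.119, 0.140 and 0.140. All samples with UK5099 lay below all samples without it, and the combination below UK5099 alone, while vehicle and butyrate overlapped. The summed fragments were 129 in vehicle (exact Poisson 95% interval 107.7 to 153.3), 88 with UK5099 (70.6 to 108.4), 142 with butyrate (119.6 to 167.4) and 54 in the combination (40.6 to 70.5). These intervals cover counting error only. Pdk4 was called lower with UK5099 (-0.19 ± 0.05, adjusted p = 0.00888) and in the combination (-0.38 ± 0.05, adjusted p = 5.69e-05), on a scale where the pseudocount of 1 exceeds the level and understates the change. After scaling the combination was still called (-0.27 ± 0.05, adjusted p = 0.000715), and UK5099 was not (-0.13 ± 0.05, adjusted p = 0.0467). As deposited, the UK5099 call was lost without any one of 9 of the 12 samples, with adjusted p up to 0.036. By voom on fragments the combination coefficient was -1.31 ± 0.22 (adjusted p = 1.83e-05), and the scaled mean TPM was 0.400 of that of vehicle.

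The upstream windows of Pdk1 and Pdk4 are shown because these kinases moved apart in the same samples. They are the 250 bases before the transcription start in RefSeq (GRCm38.p6), read in the direction of the gene. Each was searched on both strands for the GC box GGGCGG, the hypoxia response core ACGTG or GCGTG, the Myc E-box CACGTG (which contains the hypoxia core ACGTG), the forkhead core TGTTTAC, the estrogen-related receptor half-site TCAAGGTCA, the CRE TGACGTCA and CCAAT, and every match is in capitals. The Pdk1 window is that of the first of its 2 listed starts (chr2:71872974-71873223, plus strand), and the Pdk4 window is chr6:5496279-5496528, minus strand:

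Pdk1: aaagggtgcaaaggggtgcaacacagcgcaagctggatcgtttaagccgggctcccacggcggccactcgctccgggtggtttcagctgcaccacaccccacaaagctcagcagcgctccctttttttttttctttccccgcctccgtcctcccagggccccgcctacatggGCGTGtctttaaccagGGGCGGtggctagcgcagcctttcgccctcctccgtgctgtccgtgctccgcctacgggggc

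Pdk4: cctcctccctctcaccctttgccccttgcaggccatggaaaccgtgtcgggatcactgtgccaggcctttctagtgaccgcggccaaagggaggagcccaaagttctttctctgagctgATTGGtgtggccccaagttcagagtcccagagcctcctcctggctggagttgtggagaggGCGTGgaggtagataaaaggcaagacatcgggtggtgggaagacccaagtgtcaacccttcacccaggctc

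Both windows held 1 hypoxia core, starting 78 bases before the start in Pdk1 and 71 in Pdk4. Pdk1 also held 1 GC box and no CCAAT, and Pdk4 held 1 CCAAT, on the reverse strand, and no GC box. Of 32851 windows of the same length, 38.6% held a hypoxia core, 32.7% a GC box and 33.8% a CCAAT. The hypoxia core was found upstream of 9 of the 10 members (Dlat had none), the GC box of 7 and CCAAT of 6. These counts take any window of a member with more than 1 listed start, while the shares above are per window. The E-box was found upstream of Pdk2 alone among the members, against 6.02% of all windows. These matches are descriptions of letters, not of binding.

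The make-up of the kinase pool was compared within each sample, with the 4 levels per joined exon length summed to 100%. Pdk1 held 66.1% ± 0.57 (SD, n = 3) in vehicle and 70.8% ± 0.25 in the UK5099 samples. In the butyrate samples it held 76.1% ± 0.16, and in the combination 77.3% ± 0.17. Pdk3 held 26.2% ± 0.74, 21.2% ± 0.93, 17.3% ± 0.17 and 16.9% ± 0.86 in the same order. Pdk2 held 6.97% ± 0.60, 7.57% ± 0.78, 5.97% ± 0.09 and 5.56% ± 0.96. Pdk4 held 0.811% ± 0.11, 0.461% ± 0.02, 0.540% ± 0.12 and 0.214% ± 0.02. Pdk1 took the largest share in all 12 samples, with its vehicle share 69.8% where the mean length of coding transcripts was used instead.

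Shares were tested as log2 odds, the log2 of a kinase's level over the sum of the other kinases, and the differences below are in that unit. Over both arms of the design, the log2 odds of Pdk1 were higher with UK5099 by 0.20 and with butyrate by 0.60, each with an exact stratified permutation adjusted p = 0.00875. The log2 odds of Pdk3 were lower with UK5099 by -0.22 (adjusted p = 0.035) and with butyrate by -0.58 (adjusted p = 0.00875), the first not below 0.05 without combination replicate 1 (adjusted p = 0.0573). Those of Pdk4 were lower with UK5099 by -1.07 and with butyrate by -0.86, each with an adjusted p = 0.00875. Those of Pdk2 were lower with butyrate by -0.36 (adjusted p = 0.00875) and differed by 0.0025 with UK5099 (adjusted p = 0.97). The UK5099 differences were unlike in the 2 arms, without and with butyrate. They were 0.31 and 0.096 for Pdk1, 0.13 and -0.12 for Pdk2, -0.40 and -0.047 for Pdk3, and -0.81 and -1.32 for Pdk4. A share within a sample is the same under any factor applied to that sample. The shares of a sample have a fixed sum, so a larger Pdk1 share lowers the odds of the others. Lower odds are thus not in themselves a lower level. Relative to other genes, Pdk2 was called higher with butyrate alone against vehicle, its scaled mean 1.42 times that of vehicle. Neither Pdk3 nor Pdk4 was called lower there. With butyrate added to UK5099 the scaled Pdk3 samples overlapped. Scaled Pdk4 was at 0.142, 0.167 and 0.164 TPM in the combination, below 0.273, 0.271 and 0.265 with UK5099. No member was called lower in that comparison after scaling, on a scale whose pseudocount understates a Pdk4 change.

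**Figure D4:**
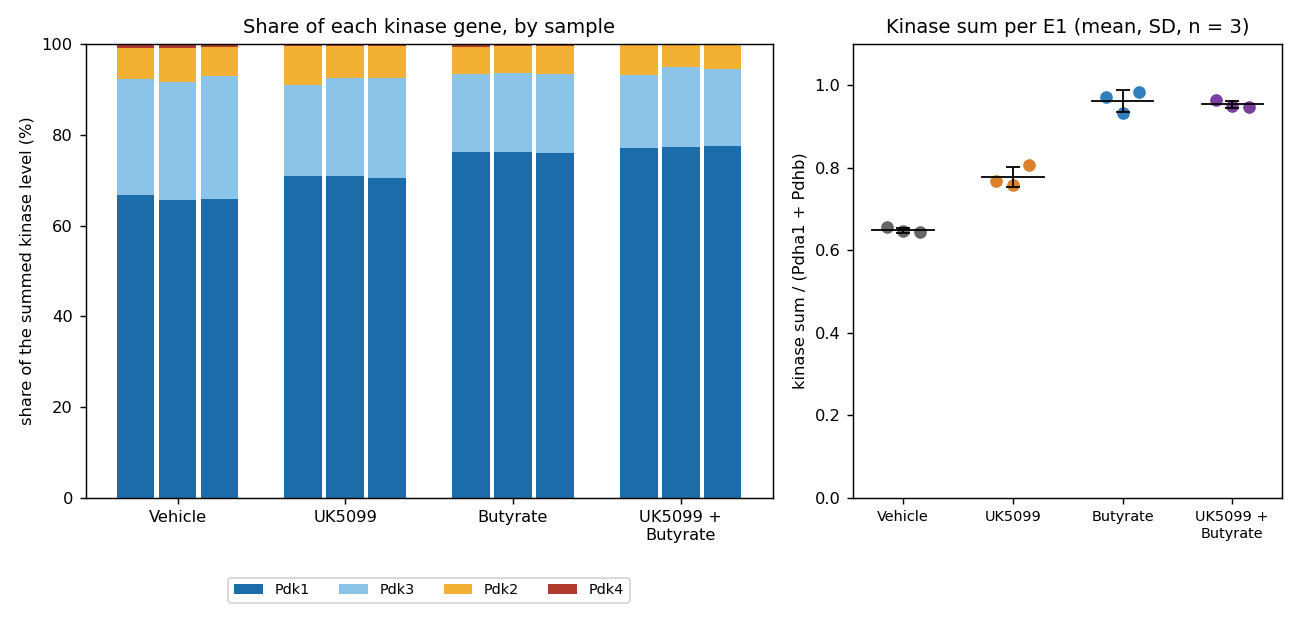
Left, the share of each kinase gene in the summed kinase level per joined exon length (vertical axis, %), stacked for each of the 12 samples. Right, the kinase sum divided by the sum of Pdha1 and Pdhb, with the mean and SD (n = 3); the ratio is 0.649 in vehicle and 0.962 with butyrate.

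The kinase sum relative to E1, that is the 4 kinases over Pdha1 and Pdhb, was 0.649 ± 0.0061 in vehicle and 0.777 ± 0.025 with UK5099. The butyrate samples had 0.962 ± 0.026 and the combination 0.954 ± 0.0093. It was higher with butyrate by 0.43 on the log2 scale (exact permutation, adjusted p = 0.00875). The UK5099 difference of 0.12 did not pass (adjusted p = 0.0808), and it was 0.26 without butyrate and -0.012 with it. Against the phosphatases, the kinase sum was 4.56 ± 0.23 times that of Pdp1 and Pdp2 in vehicle and 4.56 ± 0.024 with UK5099, against 6.46 ± 0.17 in the butyrate samples and 5.42 ± 0.065 in the combination. This ratio was higher with butyrate by 0.38 (adjusted p = 0.00875). With UK5099 it differed by -0.13 (adjusted p = 0.07), and the difference was 0.00035 without butyrate and -0.25 with it. These are ratios of transcripts, and the phosphorylation of E1 was not measured.

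The order of the members by level per joined exon length in vehicle was Pdha1, Pdk1, Dlat, Pdhb, Pdk3, Mpc1, Pdhx, Pdk2, Mpc2 and Pdk4, from 149.7 to 0.983 TPM. No neighbours overlapped in their samples. The place of Mpc1 is uncertain, since Mpc1-ps was assigned 22.5% to 24.6% of the fragments of both in vehicle. With UK5099, Dlat overlapped Pdhb and Pdk3 overlapped Mpc1. Dlat overlapped Pdk3 with butyrate, and Pdk2 overlapped Pdhx in the combination. With butyrate Pdk1 came to 129.7 TPM against 140.2 for Pdha1, and in the combination their samples overlapped, at 108.9 and 113.9 TPM. Joined exons overstate the length of some transcripts: for Mpc2 they come to 7344 bases, while its coding transcript has 1025. Per mean coding transcript length the vehicle order was Pdha1, Pdk1, Pdhb, Mpc1, Dlat, Mpc2, Pdk3, Pdhx, Pdk2 and Pdk4, so Mpc2 stood above Pdk3, and Pdk1 stood above Pdha1 with butyrate and in the combination.

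UK5099 and butyrate were then compared in each other's presence. As deposited, 6 members were called lower when UK5099 was added to butyrate, against 22% of all genes, and 8 when butyrate was added to UK5099, against 35.3%. Those shares count rare genes too. Of the 13345 genes averaging 1 TPM or more, fitted alone, 5070 and 8000 were called lower in the same order. Of the 9 members in that fit, 6 and 7 were lower. Of the scaled values 4 were called lower for UK5099 added to butyrate (9.28% of all genes), namely Pdha1, Pdhx, Pdk1 and Pdk4, and 2 were called higher for butyrate added to UK5099 (19.1%), namely Pdhb and Pdk1. Between butyrate and UK5099, 1 member was higher and 2 lower as deposited (9.97% and 27.5% of all genes), and 4 were higher after scaling (18.1%). The interaction, a test of whether the UK5099 difference changed with butyrate, was called for 2 members, Pdk1 and Pdha1, both negative, as deposited (6.38% of all genes) and after scaling (6.85%).

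For Pdk1 the UK5099 difference was 0.21 ± 0.03 without butyrate and -0.25 ± 0.03 with it, and the interaction was -0.47 ± 0.04 (adjusted p = 3.1e-05). All UK5099 samples lay above all vehicle samples, and all combination samples below all butyrate samples. On the scaled values the same differences were 0.36 and -0.11 ± 0.02 (adjusted p = 0.00227) with an interaction of -0.47 ± 0.03 (adjusted p = 3.7e-06), so the opposite signs held. For Pdha1 the UK5099 difference was -0.14 ± 0.02 without butyrate and -0.30 ± 0.02 with it, with an interaction of -0.16 ± 0.03 (adjusted p = 0.00368). The Pdha1 interaction lay above 0.01 with a pseudocount of 0.1 (adjusted p = 0.0153). It also did so without vehicle replicate 3, UK5099 replicate 2 or 3, butyrate replicate 1 or 2, or combination replicate 2 (adjusted p up to 0.012), and it was -0.16 ± 0.02 after scaling (adjusted p = 0.00106). For Pdk4, UK5099 added to butyrate gave -0.31 ± 0.05 (adjusted p = 0.000604), and its interaction of -0.12 ± 0.07 was not called (adjusted p = 0.252). The Pdk2 interaction of -0.48 ± 0.13 had an adjusted p of 0.0244, and without combination replicate 1, one of the libraries that stood apart, it was -0.57 ± 0.10 and passed (adjusted p = 0.00405).

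**Figure D5:**
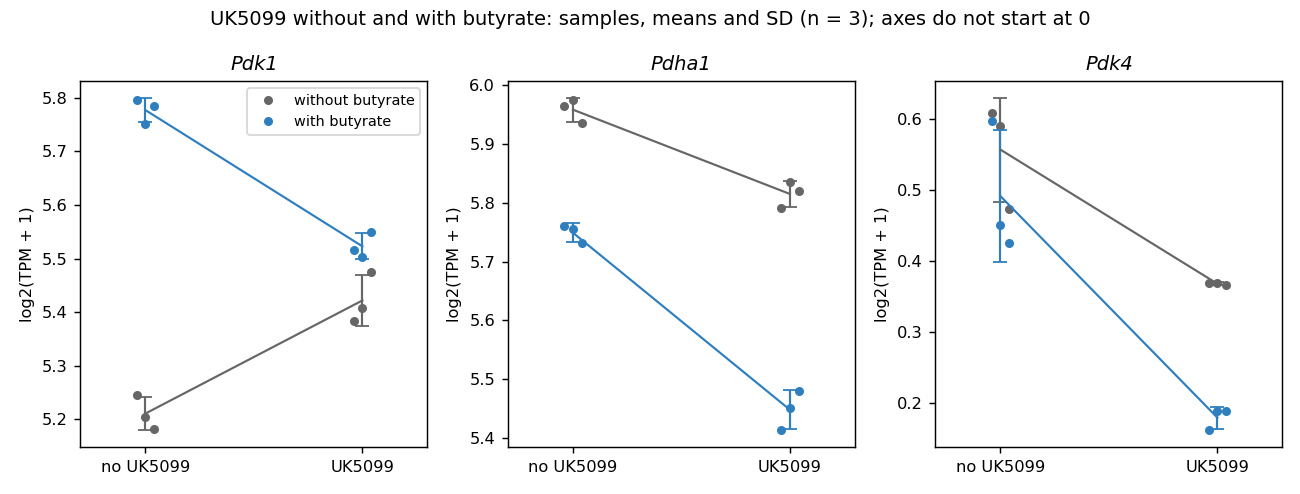
log2(TPM + 1) as deposited of Pdk1, Pdha1 and Pdk4 (vertical axes, not from 0) without and with UK5099, in samples without butyrate and samples with butyrate; points are samples, lines join the means and bars are SD (n = 3). The Pdk1 lines slope in opposite directions, with UK5099 differences of 0.21 and -0.25.

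The remaining genes of the pathway were counted in the same fit. Dld, the E3 shared with other dehydrogenases, was at 23.9 ± 0.46 TPM in vehicle (SD, n = 3) and had coefficients of -0.14, -0.40 and -0.54, of which the last 2 were called, and after scaling none was (0.0042, -0.06 and -0.06). The phosphatase Pdp1 was called higher with UK5099 under both scalings, by 0.22 ± 0.05 (adjusted p = 0.00518) as deposited and 0.35 ± 0.05 (adjusted p = 0.000224) scaled. In the combination Pdp1 was called lower as deposited (-0.23) and higher after scaling (0.22). Pdp2, the other phosphatase, was not called against vehicle as deposited and was called higher in all 3 treatments after scaling (0.19, 0.27 and 0.38). Of the 10 complex partners and phosphatases, which include these 3, 1 was called higher and 7 lower in the combination as deposited, and 5 higher and 1 lower after scaling. Over all genes the shares called there were 10.1% higher and 40.8% lower as deposited, and 23.4% and 20.6% after scaling. The combination counts of the lists that follow stand beside the same shares, which count rare genes too. Of the 13345 genes averaging 1 TPM or more, fitted alone, 8698 were called lower there as deposited. The median coefficient of the 10 was 0.16 after scaling, beside 0.0044 over genes of at least 1 TPM.

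The 9 genes of the sister 2-oxoacid dehydrogenases, which are built on the same plan and share Dld, had 3 higher and 4 lower calls in the combination as deposited and 6 higher and 1 lower after scaling, with a scaled median of 0.14, so that the 4 of 9 lower as deposited were near the share of all genes. Of the other enzymes and transporters that meet pyruvate, 15 of 16 were in the table, and 4 were higher and 8 lower in the combination as deposited, or 9 higher and 3 lower after scaling. Gpt, the alanine aminotransferase that interconverts pyruvate and alanine, rose from 5.34 ± 0.12 to 20.9 ± 0.72 TPM with butyrate and 21.9 ± 0.30 in the combination, and with UK5099 it rose to 9.79 ± 0.80. Its coefficients were 0.76, 1.79 and 1.85. Slc16a1, the lactate and pyruvate transporter of the plasma membrane, was at 18.3 ± 0.28 TPM in vehicle and 18.2 ± 1.0 with UK5099, and rose to 40.2 ± 0.60 with butyrate and 45.7 ± 1.8 in the combination.

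Of 20 targets of hypoxia-inducible factor, 12 were higher and 6 lower with UK5099, 10 and 5 with butyrate, and 9 and 7 in the combination as deposited, and 15 and 3, 16 and 3, and 16 and 3 after scaling. All genes were called higher and lower in 8.24% and 24.7% with UK5099 and 9.7% and 35.9% with butyrate as deposited, and in 13.6% and 13.6%, and 20.2% and 18.2%, after scaling. Car12, a carbonic anhydrase, rose from 1.67 ± 0.08 TPM to 9.68 ± 0.12, 26.3 ± 0.25 and 28.2 ± 0.84, while Ddit4, which restrains mTORC1, fell from 484.1 ± 8.4 TPM to 326.7 ± 6.7, 224.8 ± 8.1 and 252.6 ± 8.5. Adm, a vasodilator peptide gene, fell with UK5099 (coefficient -1.08) and rose with butyrate (0.56). Of 17 listed regulators of the kinase genes, 6 were higher and 3 lower with UK5099, 4 and 5 with butyrate, and 5 and 8 in the combination as deposited, and 8 and 1, 12 and 2, and 12 and 2 after scaling. Myc, the one past both limits, rose from 88.3 ± 2.2 TPM to 132.2 ± 3.6, 201.8 ± 2.4 and 209.8 ± 4.0.

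Of 22 targets of PPAR and FOXO factors, which regulate Pdk4, 5 were higher and 10 lower in the combination as deposited, and 10 higher and 6 lower after scaling. The 10 of 22 lower as deposited lay near the 40.8% of all genes, a share that counts rare genes too. Cpt1a, the carnitine transferase of fatty acid oxidation, fell from 5.30 ± 0.12 TPM in vehicle to 1.69 ± 0.05 in the combination, a coefficient of -1.23, or -0.85 scaled. Angptl4, a secreted lipase inhibitor, fell from 5.43 ± 0.01 to 0.651 ± 0.05 TPM, and Fbxo32, a ubiquitin ligase, from 6.77 ± 0.20 to 2.37 ± 0.12. Fabp4, a fatty acid binding protein, went the other way, from 0.375 ± 0.01 to 19.2 ± 2.9 TPM. These genes were named for the largest absolute combination coefficients among the 5 that passed both limits with some treatment. Their extreme means in the combination follow from that choice.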

How the data were processed

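Deposited values were TPM for 24674 genes in 12 samples (4 groups of 3), and no column of another sample was present. The authors' processing notes name STAR 2.7.9a, Partek and GRCm39. Their methods name another aligner version, build and library kit for this experiment, and which made the table is not given in the sources used here. The length in the table is the genomic span in 100% of genes, introns included. Levels between genes were therefore recomputed per exonic length of GENCODE M21 (23913 genes, 96.9%), except in the sums over lineage markers. Fragments were recovered from the TPM steps, and 75.8% of protein-coding values under 1000 were whole within 0.02. limma 3.58.1 in R 4.3.3 was fitted to log2(TPM + 1) with both drugs and their interaction over all genes and samples, without a low-value filter, and p-values were adjusted by Benjamini and Hochberg. The study's limits (adjusted p under 0.01, absolute coefficient over 1) were used together, and the limit on adjusted p also alone. Ratios, with shares as log2 odds, were tested by exact permutation within the strata of the other drug. The fit was also run on simulated data in which few genes changed, so that run did not test the choice of scaling. Named genes were all members, Dld, Pdp1 and Pdp2, up to 4 genes per list passing both limits, and the 5 genes most like the member with the largest combination coefficient. The list genes were taken in order of their absolute combination coefficient. Members and lists were chosen with earlier results of these data known. Figures used matplotlib 3.10.9.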

Additional observations from a re-analysis of the deposited data

Results flagged for a closer look

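The difference made by UK5099 changed with butyrate, by the limma interaction term, for 2 members. For Pdk1 the interaction was -0.47 (adjusted p = 3.1e-05), with all 3 UK5099 samples above vehicle and all 3 combination samples below butyrate, and over the samples left out in turn it ranged from -0.48 to -0.44. For Pdha1 it was -0.16 (adjusted p = 0.00368), with a range from -0.17 to -0.14, and the call was lost without any one of 6 of the 12 samples and with pseudocounts of 0.1 and 0.01 (adjusted p = 0.0153 and 0.0268).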

How the results depend on the processing

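The scaling of the samples moved the most results. After median of ratios scaling, the signs turned for Mpc1 with UK5099 (0.059), Mpc2 with butyrate and in the combination (0.10 and 0.0019), and Pdha1 with UK5099 and butyrate (0.0067 and 0.14). They also turned for Pdhb in the 3 treatments (0.022, 0.23 and 0.25), Pdk2 in the combination (0.20), and Pdk3 and Pdk4 with butyrate (0.091 and 0.042, the last 0.11 with a pseudocount of 0.1, chosen after seeing the data). Under quantile normalisation they turned for Mpc1 with UK5099 (0.048), for Mpc2, Pdha1, Pdhb and Pdk3 with butyrate (0.060, 0.16, 0.25 and 0.0048), and for Pdhb and Pdk2 in the combination (0.22 and 0.13). With voom on recovered fragments they turned for Mpc1, Pdha1 and Pdhb with UK5099 (0.060, 0.0046 and 0.018), for Mpc2, Pdha1, Pdhb, Pdk3 and Pdk4 with butyrate (0.093, 0.11, 0.20, 0.10 and 0.13), for Pdhb and Pdk2 in the combination (0.22 and 0.25), and for the Pdhb interaction (0.0028). Pdhb with butyrate was 0.0014 on exonic length and 0.0095 over nuclear protein-coding genes, where the Dlat and Pdhx interactions were -0.033 and -0.024. Summing Mpc1 with Mpc1-ps, chosen after seeing the data, gave 0.035 with UK5099 and 0.014 for the interaction. The cause was not tested.

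Of 28 called coefficients, 13 kept call and sign after median of ratios scaling, 9 lost the call and 6 turned; with voom the counts were 14, 9 and 5. The number of members called with UK5099 was 2 after median of ratios scaling, 2 under quantile normalisation, and 3 with voom and in a fit of 6 samples. With butyrate it was 4 under quantile normalisation and on exonic length, and in the combination it was 5 after median of ratios scaling, quantile normalisation or voom. For butyrate added to UK5099 it was 2 after median of ratios scaling and 4 under quantile normalisation and voom, and for butyrate against UK5099 it was 5 over nuclear protein-coding genes and 6 with voom. The interaction count was 1 with pseudocounts of 0.1 and 0.01. The 1 member past both limits was Pdk4, in the combination and for UK5099 added to butyrate with those pseudocounts and voom, and for butyrate added to UK5099 with 0.01.

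In the arm without the other drug, 3 against 3 samples cannot pass, and the smallest exact permutation adjusted p was 0.127. There the effects of butyrate were -0.31 for Mpc1 to Mpc2, 0.57 for kinases to E1 and 0.50 for kinases to phosphatases. For the log2 odds of the shares of Pdk1 to Pdk4 the butyrate effects were 0.71, -0.24, -0.76 and -0.60. Those of UK5099 were 0.31, -0.40 and -0.81 for the log2 odds of Pdk1, Pdk3 and Pdk4 and 0.00035 for kinases to phosphatases. The log2 odds of Pdk2 with UK5099 were -0.042 on genomic span and -0.00503 on coding transcript length.

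The replicate numbers share no origin in the labels, and same-numbered samples did not deviate together (r from -0.107 to 0.0294). With the number as a block, Mpc1 to Mpc2 with UK5099 (0.13) passed at adjusted p = 0.0437 and the log2 odds of Pdk3 with UK5099 (-0.22) did not, at 0.0795. Of the 28 called coefficients 27 kept their call. With the block and median of ratios scaling the counts were 2 with UK5099, 4 in the combination, 2 for butyrate added to UK5099 and 5 for butyrate against UK5099, the combination call lost being that of Dlat (adjusted p = 0.0131).

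Leaving out each sample in turn gave 3 to 5 members with UK5099, 6 to 8 with butyrate and 1 to 3 for the interaction. It gave 0.102 to 0.168 for Mpc1 to Mpc2, -0.243 to -0.199 and -0.0683 to 0.0574 for the log2 odds of Pdk3 and Pdk2, and -0.138 to -0.106 for kinases to phosphatases, all with UK5099. The interactions ranged from -0.0493 to 0.0519 for Mpc1 and from -0.0193 to 0.0277 for Pdhb. Depth limits Pdk4, at 17 to 62 fragments a sample.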
